A study of Mus musculus with 54 samples.

Results

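The PR-DUB complex is the deubiquitinase with which the proteins encoded by Mbd5 and its paralogue Mbd6 associate. Its 9 genes examined here were chosen by name. They are Bap1, Asxl1, Asxl2 and Asxl3, which encode the catalytic core, and Foxk1, Foxk2, Hcfc1, Ogt and Kdm1b, which encode accessory partners. All 9 were found among the 47069 genes of the count table, and all 9 passed the filter on low counts in every region. PolyA RNA of 18 mice aged 8 weeks was sequenced from 3 brain regions (cortex, striatum and cerebellum), which gave 54 libraries, each from a single mouse. Of the mice, 10 were Mbd5+/GT heterozygotes and 8 were WT littermates. All mice were on a C57BL/6 background and came from 3 litters. The GT allele is a gene trap inserted in the second intron of Mbd5 and is hypomorphic, so it lowers Mbd5 expression and does not remove it. The sample labels call the same genotype a heterozygous deletion of Mbd5. No other allele or agent is named for either group.

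PR-DUB, the Polycomb repressive deubiquitinase, removes the single ubiquitin that Polycomb repressive complex 1 places on histone H2A. Bap1 encodes the ubiquitin hydrolase, which is active only when bound to an ASXL protein. The forkhead factors FOXK1 and FOXK2 bind DNA and bring the complex to its targets. HCFC1 is a chromatin scaffold that BAP1 binds, OGT adds N-acetylglucosamine to serines and threonines of many nuclear proteins and processes HCFC1, and KDM1B is a histone H3 demethylase. Mutations in ASXL genes cause human neurodevelopmental syndromes, as do losses of MBD5.

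The libraries held 25295973 to 49027399 counts on genes, with a median of 29073866. At that depth the least abundant member, Asxl3, had 83 to 653 counts per library and Ogt, the most abundant, had 6717 to 28882. The regions were checked against marker genes, given as the mean log2 CPM (counts per library scaled to a common size) of a list. Of the 54 libraries, 3 lay more than 2 log2 units under the median of their region in its own neuron markers. Cerebellum replicate 9 of the Mbd5+/GT mice had a cerebellar neuron mean of 3.16, against a median of 9.36 in that group, with 9980 counts of 5 Hox genes that mark brainstem and spinal cord (median 4.5 over cerebellum libraries) and an oligodendrocyte mean of 11.5. Striatum replicates 2 and 7 of the WT mice had striatal neuron means of 5.51 and 3.78, against a group median of 8.27. The regional markers therefore went against the labels of these 3 libraries in part. Some of the results that rest on them are given with and without them. Cortex neuron markers were also measured in striatum libraries, with a median of their mean of 6.21 in WT striatum against 7.06 in WT cortex. One of them, Slc17a7, had a median of 540 CPM over striatum libraries (14.5 to 1085) and 840 over cortex libraries. The striatal neuron mean had a median of 6.58 in WT cortex (3.37 to 7.34). The striatum libraries of 2 WT mice were labelled as repeated. Because whole tissue was sequenced, fewer cells of a type and less RNA per cell cannot be told apart in any value below.

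The promoters of 3 members are shown because the levels of Asxl2 and Ogt rose and fell together from library to library while those of Bap1 did not, as described further down. The RefSeq promoter table (GRCm38.p6) held entries for 7 of the 9 members. Each line below gives the bases before the RefSeq start site on the strand of the gene, 5′ to 3′, in lower case with motif matches in capitals. Asxl2 is at chr12:3426607-3426856 (plus strand), Ogt at chrX:101639801-101640050 (plus strand, the first of its 2 entries) and Bap1 at chr14:31251239-31251449 (plus strand, where the last 39 of 250 bases were left out because the GENCODE gene begins there).
Asxl2: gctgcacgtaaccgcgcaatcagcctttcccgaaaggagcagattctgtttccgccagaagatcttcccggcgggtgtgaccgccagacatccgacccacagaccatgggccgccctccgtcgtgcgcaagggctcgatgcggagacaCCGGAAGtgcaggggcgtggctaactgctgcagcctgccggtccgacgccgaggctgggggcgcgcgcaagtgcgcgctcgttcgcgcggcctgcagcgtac
Ogt: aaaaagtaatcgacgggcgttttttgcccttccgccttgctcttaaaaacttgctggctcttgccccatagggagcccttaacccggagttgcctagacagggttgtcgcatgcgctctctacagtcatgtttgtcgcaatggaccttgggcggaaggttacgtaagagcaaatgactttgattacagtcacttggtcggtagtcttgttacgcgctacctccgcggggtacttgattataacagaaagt
Bap1: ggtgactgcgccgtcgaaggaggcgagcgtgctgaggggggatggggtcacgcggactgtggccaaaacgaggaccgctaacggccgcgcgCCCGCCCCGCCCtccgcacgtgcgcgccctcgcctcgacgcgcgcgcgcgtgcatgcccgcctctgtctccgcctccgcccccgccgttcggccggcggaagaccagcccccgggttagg
The capitals in Asxl2 mark the ETS factor motif CCGGAAG, 102 to 96 bases before the start. Those in Bap1 mark 2 overlapping matches of the SP factor motif GGGCGGG on the minus strand. The Ogt window shown held none of the 7 motifs searched, while the other Ogt entry held a YY1 match 131 to 124 bases before its start, in a stretch that lies within the GENCODE gene and is not shown. Those motifs, on both strands, were the 2 above, the NRF1 motif, the YY1 motif ATGGCGGC, the forkhead motif TGTTTAC, the CRE motif TGACGTCA and the THAP11/ZNF143 motif. Among all 32536 promoter windows of 250 bases, 6.95% held the ETS motif, 23.6% the SP motif, 3.77% the NRF1 motif, 1.04% the YY1 motif, 3.17% the forkhead motif, 1.56% the CRE motif and 1.83% the THAP11/ZNF143 motif. The ETS motif was also found before Asxl1 and Hcfc1, and the SP motif before Asxl1, Hcfc1 and Kdm1b. Asxl1 also held a THAP11/ZNF143 match 75 to 65 bases before its start. In Hcfc1 the ETS and SP matches share 1 base, and a YY1 match lies 165 to 158 bases before the start. The windows of Bap1 and Asxl2 were rich in G and C (74.4% and 67.6%), with 43 and 31 CpG dinucleotides, while that of Ogt held 49.6% and 15, against medians of 52.4% and 6 over all windows.

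The order of the members was given by their level per length, the CPM divided by the length of the exons in kilobases (CPM per kb). Ogt was the most abundant member in every region. In WT mice its level in cortex was 64.3 ± 9.7 CPM per kb, against 62.5 ± 15.7 in cerebellum and 42.9 ± 9.0 in striatum (SD, n = 8). In the order cortex, striatum, cerebellum, Bap1 was the next with 31.5 ± 2.3, 30.8 ± 3.6 and 26.0 ± 1.9 CPM per kb. It was followed by Foxk2 with 22.2 ± 2.5, 18.3 ± 1.8 and 18.8 ± 1.9 and by Hcfc1 with 13.4 ± 3.0, 11.1 ± 1.4 and 13.8 ± 2.7. The WT means of Asxl1 and Foxk1 lay between 5.67 and 8.48 CPM per kb, and those of Asxl2 and Kdm1b between 1.52 and 3.30. Asxl3 was the lowest member in all 6 groups, with 0.88 ± 0.14 CPM per kb in cortex, 0.54 ± 0.17 in striatum and 0.44 ± 0.17 in cerebellum of WT mice (SD, n = 8). The ranges of Asxl1 and Foxk1 overlapped in every group, as did those of Asxl2 and Kdm1b, so neither pair can be put in order. Ranges of neighbours also overlapped for Hcfc1 and Foxk1 in cortex and for Foxk2 and Hcfc1 in cerebellum in both genotypes, for Ogt and Bap1 in WT striatum and for Foxk1 and Kdm1b in Mbd5+/GT cerebellum. With the longest transcript as length in place of all exons, Asxl2 came before Kdm1b in striatum and cerebellum and the other ranks were the same, while the WT cortex level of Ogt rose to 96.0 CPM per kb.

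Core and accessory paralogues took unequal shares. Asxl1 took 69.6 ± 3.3% of the summed Asxl level per length in WT cortex, 73.9 ± 3.3% in striatum and 65.3 ± 5.5% in cerebellum (SD, n = 8). Asxl2 took 22.6 ± 3.2%, 19.2 ± 3.2% and 30.3 ± 5.3%, and Asxl3 took 7.71 ± 0.64%, 6.98 ± 2.2% and 4.39 ± 1.2%. In Mbd5+/GT mice the share of Asxl1 was 70.0 ± 5.0%, 72.2 ± 2.4% and 66.5 ± 4.8% (SD, n = 10), and the ranges of the genotypes overlapped in every region. Foxk2 took 72.6 ± 2.6% of the Foxk level in WT cortex, 76.6 ± 2.4% in striatum and 76.1 ± 2.0% in cerebellum. These shares take all exons as length, and those of the Asxl genes depend on that choice. With the longest transcript as length, Asxl1 took 64.7%, 69.3% and 60.1% in WT cortex, striatum and cerebellum. Asxl2 then took 26.3%, 22.5% and 34.9%, and Asxl3 took 8.92%, 8.15% and 5.03%.

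**Figure D1:**
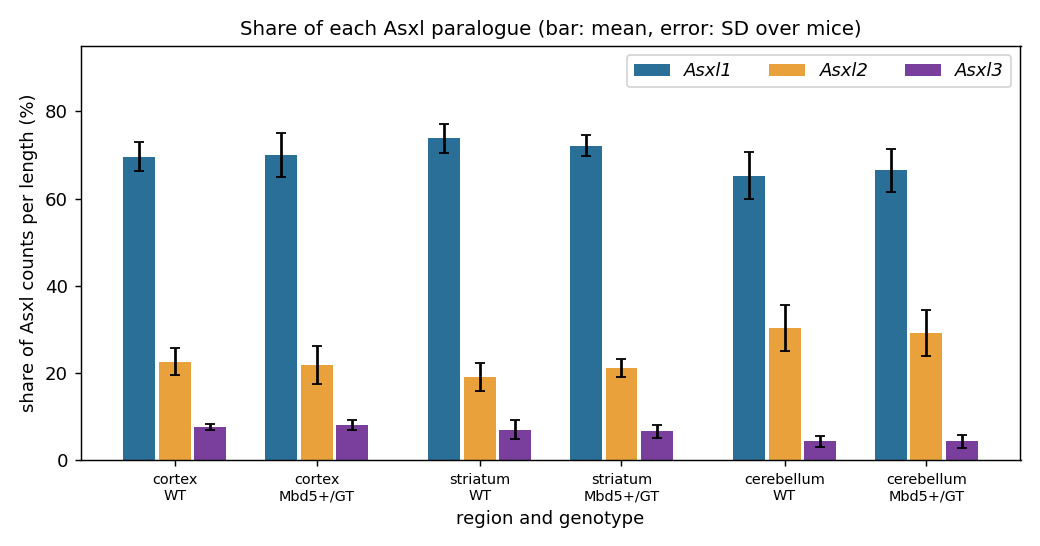
Share of each Asxl paralogue in the summed Asxl level per length (y axis, percent) by region and genotype (x axis), with bars for the mean over mice and error bars for the SD (8 WT and 10 Mbd5+/GT mice). With all exons as length, Asxl1 took the largest share in all 6 groups, from 65.3% to 73.9%.

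The levels of the core members in WT mice were as follows. Bap1, on chromosome 14 (GRCm38 31251450 to 31259944), was measured at 136 to 167 CPM in cortex (median 143), 125 to 166 in striatum (median 141) and 105 to 137 in cerebellum (median 122). Asxl1, on chromosome 2 (153345829 to 153404007), was at 47.3 to 69.6 CPM in cortex (median 60.4), 36.9 to 53.6 in striatum (median 40.5) and 35.4 to 58.0 in cerebellum (median 49.6). Bap1 was at a like level in cortex and striatum, and the WT ranges of both genes overlapped between all regions. Asxl2, on chromosome 12 (3426857 to 3506852), was at 26.4 to 51.2 CPM in cortex (median 43.4), 15.0 to 35.3 in striatum (median 23.5) and 29.0 to 84.1 in cerebellum (median 48.9). Asxl3, on chromosome 18 (22344883 to 22530227), was at 10.3 to 16.4 CPM in cortex (median 13.8), 5.81 to 14.3 in striatum (median 7.84) and 2.94 to 10.5 in cerebellum (median 7.05). The WT libraries of Asxl2 spread most in cerebellum, and those of Asxl3 were high in cortex with only a narrow overlap with cerebellum.

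The accessory members gave the following levels in WT mice. Foxk1, on chromosome 5 (142401497 to 142462011), was at 47.7 to 85.7 CPM in cortex (median 64.8), 27.3 to 53.7 in striatum (median 43.5) and 34.9 to 57.9 in cerebellum (median 44.6). Foxk2, on chromosome 11 (121259990 to 121309896), was at 106 to 139 CPM in cortex (median 113), 82.1 to 113 in striatum (median 98.4) and 86.1 to 111 in cerebellum (median 101). Both forkhead genes were highest in cortex. Hcfc1, on the minus strand of chromosome X (73942792 to 73966357), was at 86.6 to 155 CPM in cortex (median 110), 78.1 to 113 in striatum (median 96.2) and 85.0 to 162 in cerebellum (median 110). Ogt, also on chromosome X (101640060 to 101684351), was at 376 to 593 CPM in cortex (median 539), 247 to 482 in striatum (median 354) and 357 to 663 in cerebellum (median 501). Kdm1b, on chromosome 13 (47043499 to 47085279), was at 11.1 to 16.8 CPM in cortex (median 13.8), 6.42 to 14.4 in striatum (median 8.34) and 13.6 to 21.7 in cerebellum (median 18.4). Ogt and Kdm1b were lowest in striatum, and for Kdm1b 1 WT striatum library (14.4 CPM) stood well above the other 7 (at most 9.03). On the opposite strand, 505 exonic bases of Kdm1b overlap Dek, 197 of Asxl1 overlap 2500004C02Rik and 155 of Asxl2 overlap 1110002L01Rik, and since the strand setting of the counting is not given in the sources used here, reads of these stretches are uncertain.

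**Figure D2:**
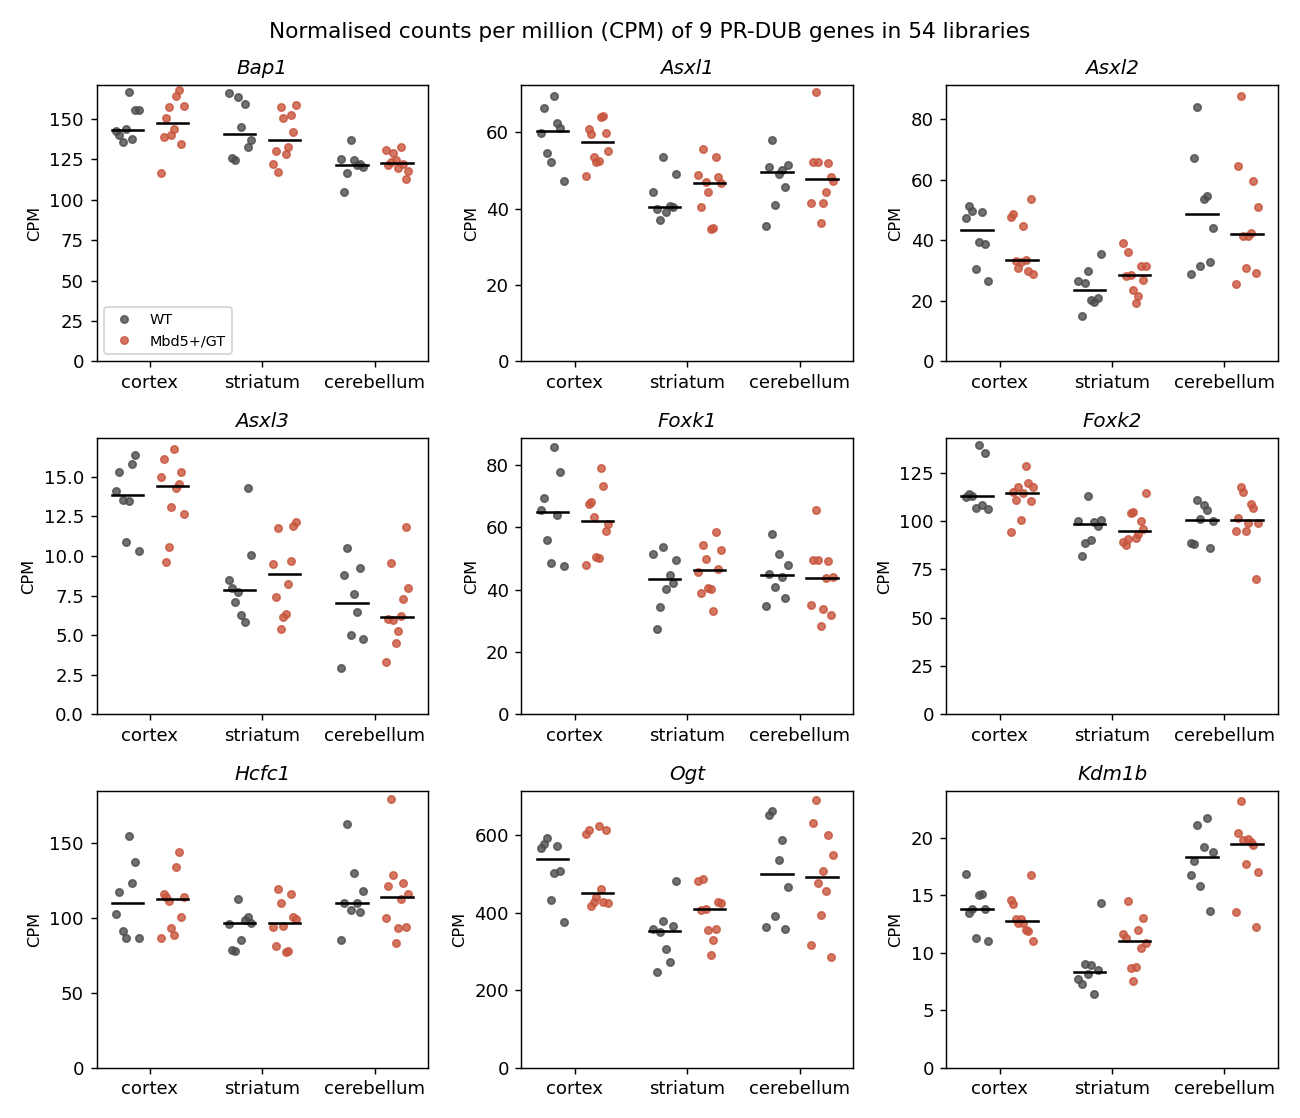
Normalised CPM (y axis, from 0) of the 9 members in each library, by region (x axis) and genotype (grey WT, n = 8; red Mbd5+/GT, n = 10), with a black line at the group median. The genotypes overlap in every panel, and the striatum medians of Ogt and Kdm1b lie under those of cortex and cerebellum.

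The comparison of Mbd5+/GT with WT mice asked whether the partners of Mbd5 change when Mbd5 is reduced. Mbd5 itself was lower in Mbd5+/GT mice, which checks the labels, although the ranges overlapped. In cortex it was at 40.6 to 53.0 CPM in Mbd5+/GT mice (median 45.8) and 47.7 to 75.6 in WT mice (median 68.0). The log2 fold changes were -0.49 in cortex, -0.51 in striatum and -0.34 in cerebellum, each with an SE of 0.048 (10 of 10, 10 of 10 and 9 of 10 Mbd5+/GT mice under the WT mean, edgeR's quasi-likelihood test, adjusted p = 0.00012, 9.4e-05 and 0.0091). That call rests on the fit: without surrogate variables, described below, the fold changes were -0.51, -0.43 and -0.39 with adjusted p of 0.057, 0.83 and 1.00, and with litter and sex as covariates they were -0.48, -0.43 and -0.31 with adjusted p of 0.80, 0.53 and 1.00. Without litter 2, Mbd5 was called in cortex (adjusted p = 0.0035) and not in striatum (0.70) or cerebellum (0.37). Over all fits run, the log2 fold change of Mbd5 lay between -0.51 and -0.43 in cortex. It lay between -0.52 and -0.40 in striatum and between -0.39 and -0.29 in cerebellum. The unadjusted p of Mbd5 in these fits (edgeR or DESeq2) was at most 4.3e-05, 0.0013 and 0.037 in that order. By DESeq2 its adjusted p in cerebellum was 2.8e-06. None of the 9 members had an adjusted p under 0.05 in cortex, striatum or cerebellum by edgeR. Over all genes tested the shares were 0.0107% of 18661 in cortex (Mbd5 and Hs6st2), 0.00539% of 18546 in striatum and 0.00551% of 18160 in cerebellum, with Mbd5 as the single gene in the latter pair of regions. At an unadjusted p under 0.05, 0 of 9 members were called in each region, where 8.47%, 7.44% and 2.75% of all genes were. DESeq2 also called 0 members after adjustment in each region, where 0.332%, 0.0162% and 0.0165% of genes were called. At an unadjusted p under 0.05 it called 1 in cortex (Foxk2, p = 0.043, of 8.15% of genes), 0 in striatum (7.32%) and 0 in cerebellum (2.65%).

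The intervals give the size of change left possible for each member under a given fit, and they depend on its covariates. In cortex the 9 log2 fold changes lay between -0.07 and 0.03, and their 95% confidence intervals between -14.8% and 10.3% of the WT level. In striatum the fold changes lay between -0.08 and 0.19, with intervals from -12.5% to 34.4%, and in cerebellum between -0.04 and 0.07, with intervals from -12.3% to 25.3%. Those intervals come from fits with surrogate variables, which are patterns shared by many genes that are estimated from the counts and taken out. Without them the intervals were wider, from -25.2% to 18.2% in cortex, -21.5% to 50.6% in striatum and -33.3% to 40.5% in cerebellum, and 0 of 9 members had an unadjusted p under 0.05 (3.43%, 5.44% and 0.463% of all genes by edgeR, with 0 genes called after adjustment in each region). With litter and sex as covariates the interval of Asxl3 in cerebellum ran from -27.8% to 52.3%. In striatum that fit gave Kdm1b a log2 fold change of 0.35, as described below. With surrogate variables, the members' median fold change in cortex was -0.04 (all genes tested, -0.0042), that in striatum 0.03 (-0.0099) and that in cerebellum 0.02 (-0.0035).

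**Figure D3:**
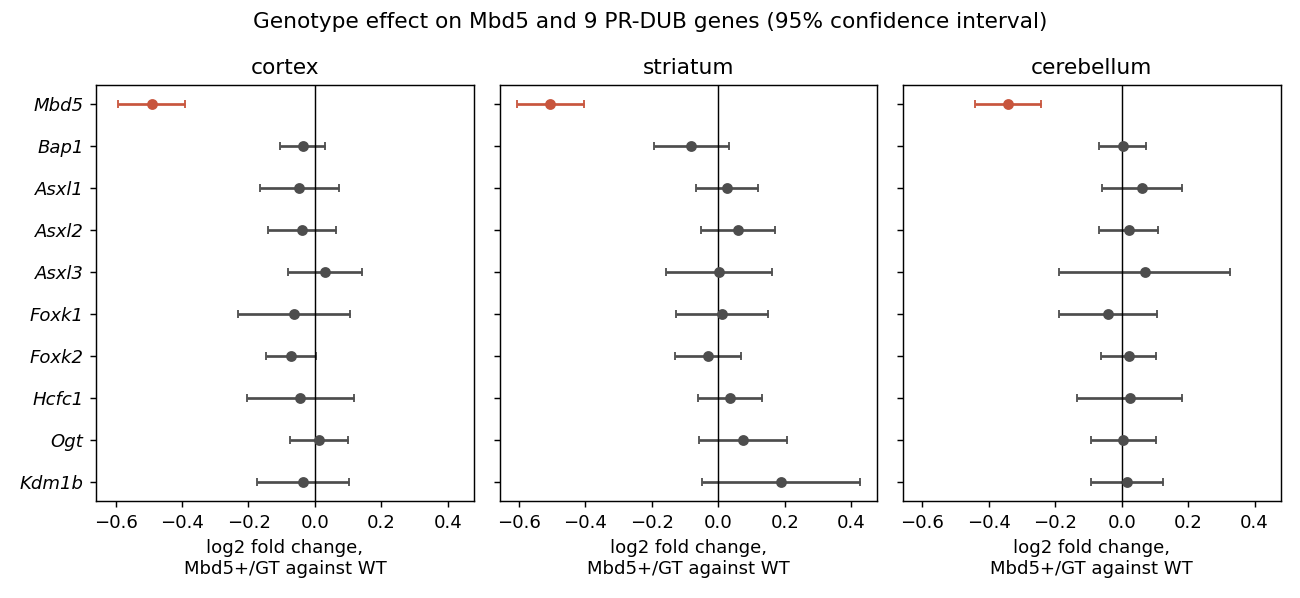
Log2 fold change of Mbd5+/GT against WT mice (x axis, 0 is no difference) with its 95% confidence interval for Mbd5 and the 9 members in each region, from edgeR fits with surrogate variables (10 and 8 mice). Only Mbd5 has intervals that leave out 0 in all 3 regions (red, adjusted p under 0.05), and every member's interval includes 0.

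Among the catalytic core, Bap1 gave log2 fold changes of -0.04 ± 0.03, -0.08 ± 0.05 and 0.0028 ± 0.034 in cortex, striatum and cerebellum (SE, edgeR adjusted p = 0.81, 0.77 and 1.00). Its interval in cerebellum ran from -4.6% to 5.2%, the narrowest range for any core member there. Asxl1 differed by -0.05 ± 0.06, 0.03 ± 0.04 and 0.06 ± 0.06, and Asxl2 by -0.04 ± 0.05, 0.06 ± 0.05 and 0.02 ± 0.04. Asxl3 differed by 0.03 ± 0.05, 0.0013 ± 0.076 and 0.07 ± 0.12, and it had the widest interval of the core in cerebellum (-12.2% to 25.3%). None of these differences was larger than the spread between mice.

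Among the accessory members, Foxk2 in cortex came closest to the threshold in the edgeR fits with surrogate variables. It was at 94.2 to 129 CPM in Mbd5+/GT mice (median 115) and at 106 to 139 in WT mice (median 113), a log2 fold change of -0.07 ± 0.04 (SE, unadjusted p = 0.058, edgeR adjusted p = 0.61). The groups overlapped, the Mbd5+/GT median was the higher one and 6 of 10 Mbd5+/GT mice lay under the WT mean. Within litters the log2 CPM differed by -0.09, 0.11 and -0.07 in litters 1, 2 and 3, where litter 2 holds 1 WT mouse. Kdm1b in striatum showed the largest fold change of any member. It was at 7.58 to 14.5 CPM in Mbd5+/GT mice (median 11.1) and at 6.42 to 14.4 in WT mice (median 8.34), and 3 of 10 Mbd5+/GT mice lay under the WT mean. The log2 fold change was 0.19 ± 0.11 (SE, unadjusted p = 0.11, edgeR adjusted p = 0.73), and 0.12 ± 0.12 without the 2 striatum libraries low in striatal markers. The differences within litters were 0.63, 0.16 and 0.31, and with litter and sex as covariates the fold change was 0.35 ± 0.14 (unadjusted p = 0.020, edgeR adjusted p = 0.53). In cortex, striatum and cerebellum, Foxk1 gave -0.06, 0.01 and -0.04, Hcfc1 -0.04, 0.04 and 0.02, and Ogt 0.01, 0.07 and 0.0053, with edgeR adjusted p of at least 0.84. Over all fits run in cortex, the fold change of Hcfc1 went from -0.04 to 0.10 and changed sign. Its lowest unadjusted p there was 0.035 (edgeR), with adjusted p of at least 0.49 in every fit.

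Whether the genotype effect differs between regions was tested as an interaction over the 54 libraries. No member passed (0 of 9 in each of the 3 contrasts, against 0% of 20477 genes), and at an unadjusted p under 0.05 the counts were 0 for cortex against cerebellum (1.11% of all genes), 0 for striatum against cerebellum (2.68%) and 1 for cortex against striatum (4.22%). The member was Kdm1b, whose effect was lower in cortex than in striatum by 0.37 ± 0.17 on the log2 scale (edgeR unadjusted p = 0.036, adjusted p = 0.99). Without the 3 libraries low in regional markers no member had an unadjusted p under 0.05 in this contrast.

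Most members differed between regions, as did a large part of all genes. In WT mice 7 of 9 members were higher in cortex than in striatum and none lower (edgeR, adjusted p under 0.05), where 47% of all 20477 genes were called and 24.4% were higher in cortex. The largest differences were those of Asxl2 (0.78 ± 0.21, adjusted p = 0.0020), Asxl3 (0.70 ± 0.21, adjusted p = 0.0053) and Kdm1b (0.65 ± 0.13, adjusted p = 8.1e-05), given as log2 difference ± SE. Ogt (0.58 ± 0.15), Foxk1 (0.58 ± 0.14), Asxl1 (0.46 ± 0.10) and Foxk2 (0.28 ± 0.08) were also higher in cortex. Hcfc1 differed by 0.27 ± 0.13 (adjusted p = 0.085) and Bap1 by 0.03 ± 0.07 (adjusted p = 0.76, interval -7.5% to 12.5%). The median difference of the members was 0.58, against 0.00077 over all genes. No member differed by 1 or more on the log2 scale, where 10.5% of all genes did and were called. In Mbd5+/GT mice the same contrast called 5 of 9, all higher in cortex, where 35.4% of genes were called. Without the libraries low in regional markers it called 7 of 9 in WT mice, all higher in cortex, where 47.2% of genes were called.

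Between cerebellum and cortex, 6 of 9 members were called in WT mice, where 55.8% of all genes were. Of these, 5 were lower in cerebellum, namely Asxl3 (-0.99 ± 0.21, adjusted p = 6.9e-05), Foxk1 (-0.52 ± 0.14), Asxl1 (-0.31 ± 0.10), Bap1 (-0.28 ± 0.07) and Foxk2 (-0.25 ± 0.08), and Kdm1b was higher (0.39 ± 0.13). Asxl3 was lower in the cerebellum than in the cortex of the same mouse in 8 of 8 WT mice and in 10 of 10 Mbd5+/GT mice. Asxl2 (0.25 ± 0.21), Hcfc1 (0.04 ± 0.13) and Ogt (-0.04 ± 0.15) did not pass the test. Of all genes 27.6% were called lower in cerebellum, and in Mbd5+/GT mice the contrast also called 6 of 9 members, 5 of them lower, where 59.9% of genes were called.

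Between cerebellum and striatum, 5 of 9 members were called in WT mice, where 65.5% of all genes were. Kdm1b (1.04 ± 0.13, adjusted p = 1.1e-09) and Asxl2 (1.04 ± 0.21, adjusted p = 2.8e-05) were higher in cerebellum by at least 1 on the log2 scale, where 30.1% of all genes were called with a difference of that size. For both genes the cerebellum exceeded the striatum of the same mouse in 8 of 8 WT mice. Ogt (0.54 ± 0.15) and Hcfc1 (0.31 ± 0.13, adjusted p = 0.036) were higher too, and Bap1 was lower (-0.25 ± 0.07). Without the libraries low in regional markers the differences of Kdm1b and Asxl2 were 0.99 and 0.92, and Hcfc1 was no longer called (0.29, adjusted p = 0.073), which left 4 members where 64.6% of genes were called. In Mbd5+/GT mice 4 of 9 were called, where 64.9% of genes were. There 0 of 9 were called with a difference of at least 1 on the log2 scale, where 27.4% of genes were. Kdm1b and Asxl2 were each lower in cerebellum than in striatum in 1 of 10 Mbd5+/GT mice. The median difference was 0.15 over the members and -0.02 over all genes.

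The 3 contrasts share their libraries and are not independent. A large part of all genes differed between regions, as the shares given beside each count show. A measure of transcript length moved with the regions as well. The mean log2 CPM of 2013 genes with a transcript of at least 6000 bases, minus that of 2066 genes whose longest transcript is under 2000 bases, had medians of 1.38 in WT cortex (0.66 to 1.52), 1.08 in cerebellum (0.34 to 1.79) and 0.45 in striatum (-0.03 to 0.84). In Mbd5+/GT mice the medians were 1.21, 0.93 and 0.63. Its part in the differences between regions was not tested, nor was that of the cortex neuron markers measured in striatum libraries. Per the labels, each tissue was collected on a single day, and an effect of that day cannot be told apart from that of the region unless the days were shared, which is not given in the sources used here.

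**Figure D4:**
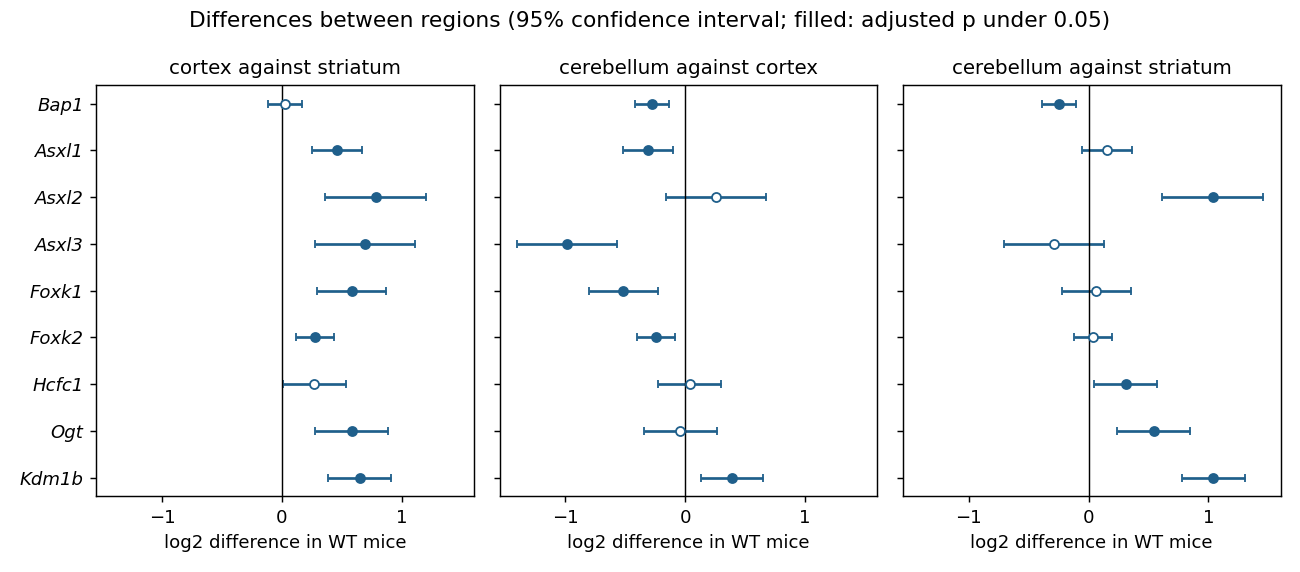
Log2 difference between regions in WT mice (x axis) with its 95% confidence interval for each member, from 1 edgeR fit over 54 libraries, with filled points for an adjusted p under 0.05. In cortex against striatum 7 of 9 points are filled, all above 0, and Bap1 is the member nearest to 0 (0.03).

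Sex was examined because Hcfc1 and Ogt are X-linked. With all libraries, neither was called by sex in any region, and 0 of 9 members were called in cortex or cerebellum (0.0482% and 0.033% of all genes, edgeR), with 0 at an unadjusted p under 0.05 in each (6.26% and 18% of all genes). With litter as a further term 1 of 9 had an unadjusted p under 0.05 in cortex (6.18% of genes), namely Hcfc1 with a log2 difference of 0.36 ± 0.17 (male against female, p = 0.0497, edgeR adjusted p = 0.80), against 0.13 ± 0.12 without that term. In striatum 1 of 9 was called, where 8.84% of all genes were, and 4 at an unadjusted p under 0.05 (28.4%). Asxl3 was at 5.37 to 9.70 CPM in males (median 6.30, n = 8) and 7.09 to 14.3 in females (median 9.76, n = 10), a log2 difference of -0.54 ± 0.15 (edgeR adjusted p = 0.036). The ranges overlapped. Litter 1 held only females and litter 2 only males, and with litter as a further term the difference was -0.70 with an adjusted p of 0.15, while within litter 3 it was -0.71 with an adjusted p of 0.24. Without the 2 striatum libraries low in striatal markers, both from females, Asxl3 (-0.48, adjusted p = 0.036) and Ogt (-0.34, adjusted p = 0.028) were called, against an adjusted p of 0.11 for Ogt with them, and 12% of genes were called. The striatal neuron marker mean had a median of 7.59 in females (3.78 to 8.43) and 8.49 in males (7.49 to 9.36), and its part in the sex difference was not tested. No member showed a genotype effect that differed between the sexes at an unadjusted p under 0.05 in cortex (1.3% of all genes by edgeR), striatum (1.62%) or cerebellum (0.54%), and the adjusted p were at least 0.99.

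Other genes of the same pathways were read from lists. None of the 25 genes of Polycomb repressive complex 1, the 11 of Polycomb repressive complex 2, the 6 of O-linked N-acetylglucosamine metabolism, the 14 of histone H3 methyltransferase complexes, the 10 of histone H3 demethylase complexes, the 5 of the ubiquitin hydrolase family with its DEUBAD partners, or the 7 tested of 8 other H2A deubiquitinases had an adjusted p under 0.05 by genotype in any region. The lowest unadjusted p in each list belonged to Pcgf3 in cortex (-0.12, p = 0.014), Jarid2 in cortex (-0.15, p = 0.021), Gfpt1 in striatum (0.10, p = 0.016), Kmt2c in striatum (0.15, p = 0.014), Kdm5a in striatum (0.10, p = 0.051), Uchl5 in striatum (0.13, p = 0.15) and Mysm1 in striatum (0.09, p = 0.090), with log2 fold changes from edgeR and adjusted p of at least 0.47. Oga, which removes the modification that OGT adds, differed by -0.09 in cortex (unadjusted p = 0.049, edgeR adjusted p = 0.59). These lists gave no call by genotype.

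The same lists were read between regions of WT mice, where 55.8% of all genes were called for cerebellum against cortex, 65.5% for cerebellum against striatum and 47% for cortex against striatum, and no list was compared with the members by a test. Of the 7 H2A deubiquitinases tested, 3 were higher and 2 lower in cerebellum than in cortex, and 5 were higher and 1 lower than in striatum. Usp3, another H2A deubiquitinase, was higher in cerebellum than in cortex by 2.07 and than in striatum by 1.82 on the log2 scale. Of the 11 Polycomb repressive complex 2 genes, 8 were higher in cerebellum than in cortex and 0 lower, with the largest difference in Jarid2 (0.91), and 8 were higher than in striatum, led by Suz12 (1.33). Of the 25 Polycomb repressive complex 1 genes, 10 were higher and 6 lower in cerebellum than in cortex, with the largest difference in Bcor (-0.93), and 9 were higher and 6 lower than in striatum, with the largest in Bmi1 (1.13). Between cortex and striatum the largest difference of the lists was in Mtf2 (1.01), Kmt2a (1.00), Rnf2 (0.99), Mysm1 (0.85), Adrm1 (-0.78), Gfpt1 (0.75) and Kdm5a (0.59), where a positive value is higher in cortex and Rnf2 is a ubiquitin ligase that acts against PR-DUB on H2A. Of the 14 methyltransferase complex genes, 10 were higher and 0 lower in cerebellum than in cortex, with Kmt2c (0.85) the largest, and 9 were higher and 1 lower than in striatum, again with Kmt2c the largest (1.80). Of the 10 demethylase complex genes, 5 were higher and 2 lower in cerebellum than in cortex, and Rcor2, a corepressor, had the largest difference (-2.18, and -2.20 against striatum). Gfpt2, of the pathway that makes the sugar donor of OGT, was lower in cerebellum than in cortex by 1.76 on the log2 scale and Uchl1, a neuronal ubiquitin hydrolase, by 1.33.

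Within groups the members did not vary independently. For each gene the log2 CPM of a library was taken as its deviation from the mean of its region and genotype, and correlated over the 54 libraries as a description, since libraries of a mouse and of a day share their source. The pair that was most alike was Asxl2 and Ogt (Pearson r = 0.95), and only 42 of the 20476 other genes were more like Asxl2 than Ogt was. Hcfc1 followed Foxk1 (r = 0.92, rank 6 among all genes by likeness to Foxk1) and Asxl1 (r = 0.87). Kdm1b was most like Ogt among the members (r = 0.75). Bap1 stood apart, with r of -0.28 with Asxl2, -0.32 with Asxl3, 0.13 with Asxl1, -0.29 with Ogt and -0.34 with Kdm1b, and 0.63 with Foxk2. Without the 3 libraries low in regional markers these values moved little for Asxl2 and Ogt (0.96) and for Foxk1 and Hcfc1 (0.94), and the r of Bap1 with Ogt went to -0.45. The r of Asxl3 went from 0.53 to 0.73 with Asxl2, from 0.48 to 0.71 with Ogt and from 0.03 to 0.25 with Foxk2.

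Mbd5 deviated along with several of its partners, and along with many other genes. Its r with Asxl2 was 0.87 (rank 172 of 20476 genes), 0.86 with Asxl1 (rank 220) and 0.82 with Foxk1 (rank 430). It was 0.80 with Ogt (rank 551), 0.78 with Hcfc1 (rank 728) and 0.57 with Foxk2 (rank 2579). The lowest were 0.49 with Kdm1b (rank 3342), 0.45 with Asxl3 (rank 3768) and 0.06 with Bap1 (rank 8994). Without the 3 libraries low in regional markers the r with Asxl3 was 0.64, above those with Foxk2 (0.54) and Kdm1b (0.45). That with Bap1 was then -0.04. The median over all genes was -0.0032. Within each of the 6 groups taken alone, the r of Mbd5 with Asxl2 lay between 0.62 and 0.98 and with Bap1 between -0.56 and 0.74. The length measure given above moved with the same deviations. Its r, as a deviation from the group mean, was 0.90 with both Asxl2 and Mbd5, 0.85 with Asxl1, 0.83 with Ogt, 0.76 with Foxk1, 0.73 with Hcfc1, 0.71 with Asxl3, 0.59 with Kdm1b, 0.41 with Foxk2 and -0.18 with Bap1. The longest transcript has 11934 bases in Asxl2, 8543 in Mbd5, 6981 in Asxl1, 5384 in Ogt and 7439 in Foxk1. It has 8262 in Hcfc1, 11697 in Asxl3, 4987 in Kdm1b, 5029 in Foxk2 and 3855 in Bap1. The share of a library's counts on spike-ins had an r of -0.66 with Asxl2, -0.64 with both Ogt and Kdm1b and -0.49 with Asxl3. It was -0.46 with Mbd5, -0.40 with Asxl1, -0.21 with Foxk1, -0.19 with Hcfc1, -0.06 with Foxk2 and 0.49 with Bap1. The part of either measure in the correlations was not tested.

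**Figure D5:**
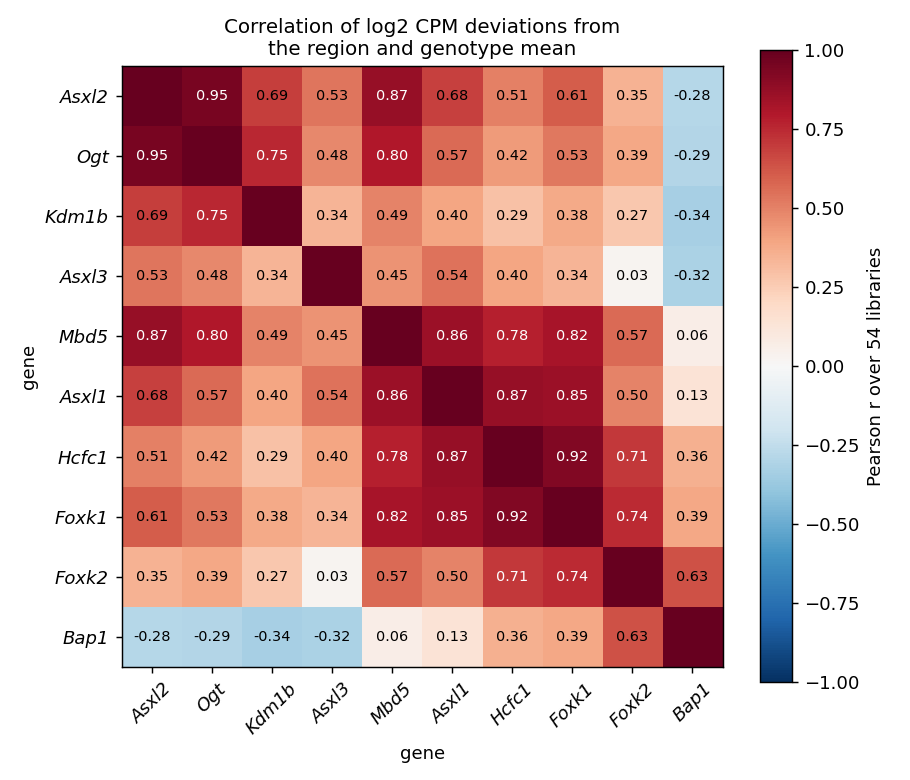
Pearson r (colour and number) of the deviations of log2 CPM from the region and genotype mean over 54 libraries, for Mbd5 and the 9 members on both axes. Asxl2 and Ogt (0.95) and Foxk1 and Hcfc1 (0.92) are the pairs most alike, and the column of Bap1 is near or under 0 except for Foxk2 (0.63), Foxk1 (0.39) and Hcfc1 (0.36).

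The genes whose deviations were most like those of each member, over 54 libraries and among 20476 other genes, were as follows. For the core they were Ubqln4 (r = 0.88) and Mmp17 (0.87) for Bap1, Epg5 (0.95) and Xpo5 (0.92) for Asxl1, Cep350 (0.97) for Asxl2, and Map2 (0.89) and Magi1 (0.89) for Asxl3. For the accessory members they were Tgfbrap1 (0.94) and Ankrd11 (0.94) for Foxk1, Gfod1 (0.93) and D430041D05Rik (0.91) for Foxk2, Prrc2b (0.98) and Ubap2l (0.95) for Hcfc1, Fam208b (0.98) and Ccnt2 (0.97) for Ogt, and Rcor3 (0.88) and Msl2 (0.86) for Kdm1b. No gene named here was among the nearest to more than 1 member.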

How the data were processed

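RNA-seq counts of 54 libraries (cortex, striatum and cerebellum of 10 Mbd5+/GT and 8 WT mice) were used. The deposited file gives, for every gene, the number of reads counted (whole numbers, not normalised), which the authors made by alignment to GRCm38 with STAR and its gene counting option. The submitters' processing notes list FastQC 0.10.1 and STAR 2.4.2. That option leaves out reads with more than a single alignment, and the strand setting is not given in the sources used here. The 92 spike-ins entered neither the library sizes nor the tests. Names and lengths came from the GENCODE annotation of GRCm38. No library repeated another (chi-square per gene of at least 8.6 over 219 pairs, where counting error alone gives about 1).

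A gene was tested where at least 8 libraries held more than 4 counts of it. Counts were normalised by TMM and tested with edgeR 4.0.16 (quasi-likelihood, R 4.3.3), per region with genotype and surrogate variables (sva 3.50.0, with 4 in cortex, 4 in striatum and 2 in cerebellum, after the paper's methods), and over all libraries for regions and interactions. Sex was tested with genotype as a covariate. P-values were adjusted over all genes by the Benjamini-Hochberg method, at 0.05. DESeq2 1.42.0 was an alternative. The log2 CPM used a prior count of 2. Fits were also run on simulated counts with known changes, larger than any genotype difference of a member. The simulated libraries had no litters, shared mice or patterns shared by many genes. They therefore cannot show how the fits perform under those conditions. P-values by genotype measure the spread between mice that is left after the surrogate variables are taken out. Those between regions and of interactions come from a fit that treats the libraries of a mouse as independent. The mouse as replicate block was an alternative to that fit.

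The mouse pairs the regions. Deviations of libraries correlated with a median of 0.16 between cortex and cerebellum of a mouse, 0.09 between cortex and striatum and 0.06 between striatum and cerebellum, and near 0 between mice.

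The members and gene lists were chosen with earlier results of these data known. Besides the members, Mbd5 and the markers used to check regions, the text names from each list the genes called by genotype or that with the lowest p, the gene with the largest called difference between regions, and the 2 genes most like each member, of which 1 is not reported here. Oga and Hs6st2 were named after their values were seen, as were the libraries low in regional markers. The libraries of replicates are separate mice.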

Additional observations from a re-analysis of the deposited data

Results flagged for a closer look

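Of 66 sets of libraries (the 9 members, Mbd5 and Mbd6 in 6 groups), 4 held a library far from the others by Dixon's criterion, which chance meets in about 1 of 20 sets. Kdm1b was at 14.4 CPM in striatum replicate 8 of the WT mice, where the other 7 lay between 6.42 and 9.03. Foxk2 was at 70.1 CPM in cerebellum replicate 9 of the Mbd5+/GT mice, where the other 9 lay between 94.8 and 118, and Mbd6 was at 55.5 CPM in the same library, with the others between 79.0 and 92.8. That library is the one with Hox counts and few cerebellar neuron markers. Mbd6 was also at 60.6 CPM in cerebellum replicate 7 of the WT mice, where the other 7 lay between 79.9 and 88.6.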

How the results depend on the processing

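The number of members called by genotype or by the interaction was 0 under every alternative run, including the mouse as replicate block (0 in each interaction). The number called between regions was 6, 5 and 7 (cerebellum against cortex, cerebellum against striatum, cortex against striatum), and 6, 5 and 7 with the mouse as replicate block, which changed no other call. By sex in striatum, 1 member was called, 0 with litter as a further term, 0 in litter 3 alone and 2 without the libraries low in regional markers, an alternative chosen after seeing the data. Of the region calls, Hcfc1 (cerebellum against striatum) was lost in 6 alternatives (adjusted p of 0.057 to 0.12), Asxl2 and Kdm1b (cortex against striatum) in Mbd5+/GT mice, and Asxl3 (cortex against striatum) without the repeated libraries (0.53, adjusted p = 0.054).
Differences by genotype or region that changed sign, none of them called with all libraries, are given on the log2 scale, and the cause was not tested. By genotype in cerebellum the values were -0.00051 (Bap1) by DESeq2, -0.00023 (Bap1) with DESeq2 size factors, -0.0038 (Bap1) with litter and sex as covariates, -0.0012 (Bap1) with no filter, -0.074 (Asxl2), -0.032 (Asxl3), -0.014 (Hcfc1), -0.043 (Ogt) with no surrogate variables, -0.013 (Asxl2), -0.0060 (Asxl3), -0.0033 (Hcfc1), -0.013 (Kdm1b) without libraries low in regional markers and 0.0050 (Foxk1), -0.030 (Ogt), -0.059 (Kdm1b) without litter 2. By genotype in cortex the values were 0.0035 (Bap1), 0.023 (Foxk1), 0.064 (Hcfc1) with litter and sex as covariates, 0.0031 (Bap1), -0.028 (Ogt) with no surrogate variables, 0.040 (Asxl1), 0.069 (Foxk1), 0.078 (Hcfc1) with at least 10 counts in every library, 0.0039 (Asxl1), 0.015 (Foxk1), 0.049 (Hcfc1) with no filter and 0.049 (Asxl1), 0.051 (Foxk1), 0.098 (Hcfc1) without litter 2. By genotype in striatum the values were -0.0021 (Asxl2), -0.062 (Asxl3) with at least 10 counts in every library, -0.0083 (Asxl3), -0.012 (Foxk1) with no filter and -0.0045 (Foxk1) without libraries low in regional markers. For cerebellum against cortex the values were -0.0068 (Hcfc1) with at least 10 counts in every library and 0.0014 (Ogt) without the repeated libraries. For cerebellum against striatum the values were -0.019 (Foxk1), -0.054 (Foxk2) with at least 10 counts in every library, -0.097 (Foxk1) in Mbd5+/GT mice and -0.025 (Foxk1) without libraries low in regional markers. For cortex against striatum the values were -0.011 (Bap1) with at least 10 counts in every library and -0.022 (Bap1) without libraries low in regional markers. By sex (male against female) the sign changed with litter as a further term for Asxl1 (-0.15 to 0.056), Asxl2 (-0.22 to 0.50), Foxk1 (-0.084 to 0.24), Hcfc1 (-0.12 to 0.15) and Ogt (-0.018 to 0.46) in cerebellum, for Asxl2 (-0.22 to 0.072), Asxl3 (-0.026 to 0.092), Ogt (-0.13 to 0.048) and Kdm1b (-0.099 to 0.072) in cortex and for Foxk2 (0.085 to -0.057) in striatum. The signs also changed for these genes in litter 3 alone, and for Foxk1 in striatum (0.032 to -0.047) without the libraries low in regional markers, and no value of these was called.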

Other observations

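Mbd6, the paralogue of Mbd5 that also joins PR-DUB, differed little by genotype. In cortex, striatum and cerebellum its log2 fold changes were 0.03 ± 0.05, -0.04 ± 0.10 and 0.02 ± 0.04 (SE, edgeR adjusted p = 0.93, 0.97 and 1.00). In WT mice it was at 56.2 to 72.8 CPM in cortex (median 66.6), 64.5 to 111 in striatum (median 81.6) and 60.6 to 88.6 in cerebellum (median 82.2). It was lower in cortex than in striatum by 0.33 on the log2 scale (edgeR adjusted p = 0.0043), where Mbd5 and 7 of its 9 partners were higher in cortex. The highest WT striatum value of Mbd6 was that of replicate 7, a library low in striatal markers, and the difference without it is not given. Its deviations over the 54 libraries had an r of 0.29 with those of Mbd5, against 0.87 for Asxl2 and Mbd5.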
